A study of Mus musculus with 4 samples.

Results

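The genes described here encode the cell junctions of the blood-testis barrier. They were 10 members chosen by symbol, Cldn11, Cldn3, Cldn5, Tjp1, Ocln, F11r, Cdh2, Cdh1, Nectin2 and Gja1, of 30828 genes listed in each matrix. All 10 were found, 9 under their own symbol and Nectin2 under its older symbol Pvrl2, matched by gene ID. Single cells came from mouse testes on postnatal day 8 and had been sorted for CD9 and THY1. Control mice were Cnot3 flox/flox and are called wild-type in the labels. Cnot3-cKO mice were Cnot3 flox/flox; Ddx4-creER, in which a germ cell promoter drives a Cre recombinase that 4OHT activates, so that Cnot3, which encodes part of the CCR4-NOT complex that shortens mRNA tails, is deleted in germ cells and kept in somatic cells by design. Both genotypes received 4OHT: the labels give a first injection on day 1 for all 4 samples and a last on day 1 or 2 for the control samples and on day 3 or 4 for the Cnot3-cKO samples, whereas the study's methods give a single schedule. The 2 samples of each genotype were deposited as 1 merged matrix, and no barcode could be assigned to its sample. Each genotype is therefore 1 library, no difference below has a replicate check or a test, and every interval is an exact 95% interval that covers counting error only.

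Sertoli cells line the seminiferous tubule and seal it near its base with a belt of tight, adherens and gap junctions. Claudins and occludin are the strand proteins of tight junctions, F11r (JAM-A) is an immunoglobulin-type adhesion protein beside them and Tjp1 (ZO-1) is the scaffold that ties them to actin. N-cadherin and E-cadherin (Cdh2 and Cdh1) and Nectin2 hold adherens junctions, and Gja1 encodes connexin 43, the main gap junction protein between Sertoli cells. In the mouse the barrier closes only after germ cells have first advanced into meiosis, later than the age studied here.

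The control library held 181550221 UMIs and the Cnot3-cKO library 168770743, and the study's filters left 5615 and 6034 cells with medians of 14183 and 13215 UMIs. Cells were clustered without the members and without 73 other junction genes, and clusters were named from other marker genes. Sertoli-like cells numbered 1400 in the control library and 1723 in the Cnot3-cKO library, germ-like cells 241 and 73, peritubular myoid-like cells 1159 and 1521, stroma-like cells 1335 and 1347 and endothelial-like cells 33 and 37. All 10 Sertoli markers and all 6 germ markers were highest in their own class in both libraries, as were 6 of 7 stroma markers in both, 7 and 6 of 7 myoid markers and 7 and 8 of 8 endothelial markers. Cnot3 itself gave 69.4 UMIs per 1000000 UMIs (492 UMIs) in germ-like cells of control and 38.0 (58 UMIs) in those of Cnot3-cKO, whereas Sertoli-like cells gave 64.5 and 67.3, although a 3′ tag need not lie in the deleted part of the gene. Thy1, one of the sorting markers, gave 0 and 1 UMIs in all Sertoli-like cells, and only 7 and 1 in all germ-like cells. Cd9, the other, gave 114 and 108 UMIs per 1000000 in Sertoli-like cells and 115 and 134 in germ-like cells. Among called barcodes, 18 sequences occurred in both libraries, against 11.5 expected at random.

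Levels are CPM, the UMIs of a gene per 1000000 UMIs of all genes, summed over the cells of a class and library. Because a 3′ kit counts 1 tag per transcript molecule, levels are on a UMI scale and were not divided by gene length. The plot of levels by class shows 3 patterns: 6 members were highest in Sertoli-like cells, Cldn5 and Tjp1 were highest in endothelial-like cells, and Cldn3 and Cdh1 gave at most 4 UMIs in each of the 4 somatic classes of a library. For F11r and Nectin2, among the 6, the lead over endothelial-like cells was within counting error. The share of all genes highest in a class was not taken, so these counts cannot be read against it.

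**Figure D1:**
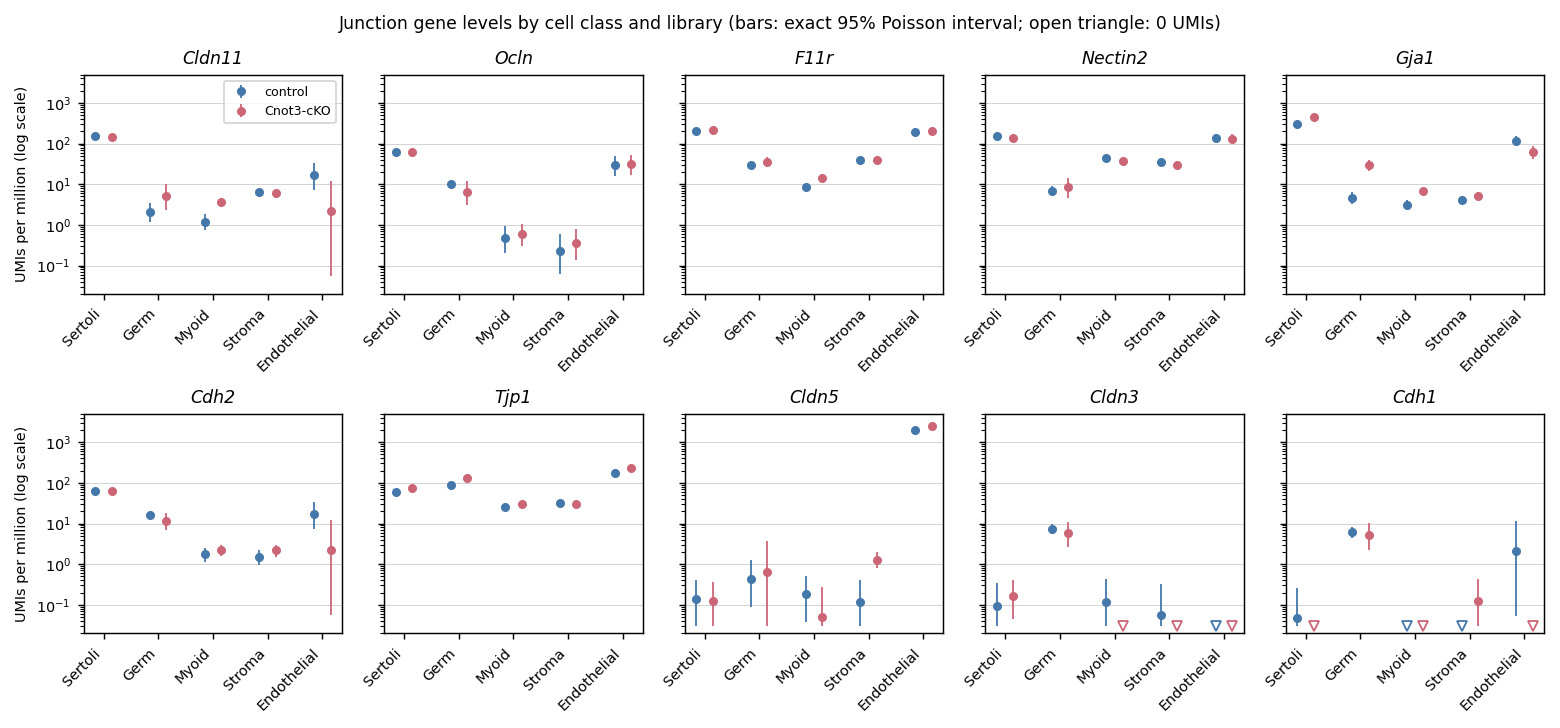
Each panel plots 1 gene, with CPM on a log axis in the 5 cell classes; blue points are control, red points Cnot3-cKO, bars are exact 95% Poisson intervals and open triangles mark 0 UMIs. Cldn11 stood near 150 in Sertoli-like cells and under 20 in every other class, whereas Cldn5 was 2042 or above in endothelial-like cells and was at or below 1.27 in the others.

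Promoter sequences are shown for Cldn11, Cldn5 and Gja1, the strand protein of Sertoli cells, the strand protein of endothelial cells and the member with the largest difference between genotypes in Sertoli-like cells. Each is the 250 bases before the RefSeq start, 5′ to 3′ on the gene's strand, from GRCm38.p6: chr3:31149670-31149919 (+), chr16:18776597-18776846 (+) and chr10:56377050-56377299 (+). Capitals mark CCAAT or its reverse complement ATTGG, and TGANTCA, which is its own reverse complement.
Cldn11: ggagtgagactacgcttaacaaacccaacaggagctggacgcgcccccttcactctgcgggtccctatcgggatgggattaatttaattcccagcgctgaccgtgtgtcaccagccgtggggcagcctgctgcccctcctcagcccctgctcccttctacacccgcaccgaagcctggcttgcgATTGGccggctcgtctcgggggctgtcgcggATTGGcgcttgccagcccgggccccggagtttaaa
Cldn5: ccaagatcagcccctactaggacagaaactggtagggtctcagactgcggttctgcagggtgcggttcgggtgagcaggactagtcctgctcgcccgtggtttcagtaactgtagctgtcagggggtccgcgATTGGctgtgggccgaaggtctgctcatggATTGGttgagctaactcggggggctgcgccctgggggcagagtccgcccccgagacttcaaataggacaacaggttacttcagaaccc
Gja1: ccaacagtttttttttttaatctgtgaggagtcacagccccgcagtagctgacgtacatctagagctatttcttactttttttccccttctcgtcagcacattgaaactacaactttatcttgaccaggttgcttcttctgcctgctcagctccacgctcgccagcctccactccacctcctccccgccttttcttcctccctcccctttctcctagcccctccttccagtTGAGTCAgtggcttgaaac
The Cldn11 and Cldn5 windows each held 2 CCAAT matches, although their transcripts were found in different cells, and the Gja1 window held none and 1 TGANTCA match. Of 32536 RefSeq promoter windows of this length, 33.8% held a CCAAT match and 6.73% a TGANTCA match on either strand. Among the 8 members whose promoter windows were examined, which left out Cdh1 and Cdh2, 4 held CCAAT and 2, Gja1 and F11r, held TGANTCA. These members had 9 windows, and a member counted if any of its windows matched, whereas the shares above are of single windows. Ocln had 2 windows, of which 1 held CCAAT. All of these are letter matches only and describe no binding.

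Cldn11, which forms the tight junction strands of Sertoli cells (chromosome 3, 31149920 to 31164324, plus strand, GRCm38), stood at 150.3 CPM (95% interval 145 to 156) in control and 146 (141 to 151) in Cnot3-cKO Sertoli-like cells. The next class was endothelial-like in control, at 16.8 from 8 UMIs, and stroma-like in Cnot3-cKO, at 6.05 from 100 UMIs. Cldn11 was thus 8.93-fold (4.53 to 20.7) and 24.1-fold (19.8 to 29.7) above the next class. In both libraries it was at least 4-fold above every other class, which held for 1.98% of 13725 genes in Sertoli-like cells, and for 4% in germ-like, 0.67% in myoid-like, 0.998% in stroma-like and 1.99% in endothelial-like cells. With every cell thinned to 7500 UMIs, 61.9% of the control and 62.6% of the Cnot3-cKO Sertoli-like cells showed a Cldn11 UMI (81.1% and 79.3% without thinning), against 1.24% and 6.85% of germ-like cells. The Cldn11 UMIs of other classes can be set beside the 10 Sertoli markers in the same cells. Per 1000 UMIs of those markers, Cldn11 gave 12.9 and 12.4 UMIs in control and Cnot3-cKO Sertoli-like cells, and in germ-like cells 13.7 (7.64 to 22.7) and 11.8 (5.09 to 23.5), close to the Sertoli proportion. In stroma-like cells it gave 71.5 (58.5 to 86.8) and 41.9 (34.0 to 51.2), above that proportion in both libraries. Within stroma, Cldn11 stood at 9.19 and 9.87 CPM in the cluster led by Clec3b and Mfap5 and at 1.28 and 1.85 in the cluster led by Vcam1.

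Ocln, the tight junction membrane protein occludin, followed Cldn11 at a lower share of cells. It stood at 61.0 CPM (57.7 to 64.4) in control and 62.3 (59.2 to 65.5) in Cnot3-cKO Sertoli-like cells, and was seen in 35.5% and 36.4% of thinned cells. Endothelial-like cells came next with 29.5 and 30.9, from 14 UMIs in each library, which put Sertoli-like cells 2.07-fold (1.23 to 3.80) and 2.02-fold (1.20 to 3.70) higher. Germ-like cells held 10.2 and 6.55, and myoid-like and stroma-like cells at most 12 UMIs each in a library.

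F11r, the immunoglobulin-type adhesion protein of tight junctions, was as high in endothelial-like as in Sertoli-like cells within counting error. Sertoli-like cells held 206 and 222 CPM and endothelial-like cells 192 (154 to 235) and 205 (166 to 251), a fold of 1.07 (0.873 to 1.34) in control and 1.08 (0.882 to 1.34) in Cnot3-cKO. Stroma-like cells held 38.9 and 38.6, germ-like cells 28.9 and 35.3, and myoid-like cells 8.49 and 14.1.

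Tjp1, the scaffold under tight junctions, was the member found most evenly over classes. It was highest in endothelial-like cells, at 179 and 227 CPM, above germ-like cells, which held 89.3 and 129. The Cnot3-cKO fold between these classes was 1.76 (1.37 to 2.25). Sertoli-like cells held 60.6 and 73.4, stroma-like cells 31.8 and 29.6, and myoid-like cells 26.2 and 30.8. Of the 7 members with at least 100 UMIs in Sertoli-like cells, Tjp1 alone was higher in germ-like cells in both libraries, and it was seen in 47.3% and 58.9% of thinned germ-like cells.

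Cldn5, the main claudin of vessel walls, was found in endothelial-like cells and almost nowhere else. It gave 2042 CPM (1915 to 2175) in the 33 control cells and 2517 (2373 to 2668) in the 37 Cnot3-cKO cells. A UMI was seen in 90.9% and 97.3% of these cells after thinning. In Sertoli-like cells it gave 3 UMIs in each library, in germ-like cells 3 and 1, and in myoid-like cells 3 and 1. Its endothelial level was at least 4-fold above every other class in both libraries, beside the 1.99% of genes given above. Stroma-like cells gave 2 Cldn5 UMIs in control and 21 in Cnot3-cKO, of which 16 lay in 3 cells.

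Cldn3, a tight junction claudin of the newly assembled barrier, gave 2 and 4 UMIs in all Sertoli-like cells, or 0.095 and 0.16 CPM. Germ-like cells held 7.48 (53 UMIs) and 5.89 (9 UMIs), and endothelial-like cells none in either library. Cdh1, the epithelial cadherin, was also highest in germ-like cells, with 6.21 (44 UMIs) and 5.24 (8 UMIs) in germ-like cells, 1 and 0 UMIs in Sertoli-like cells and 0 in myoid-like cells of both libraries. The 0 of 1723 Cnot3-cKO Sertoli-like cells allows, as 3 counts of the total, a share of cells with a Cdh1 UMI of up to 0.174%. Neither gene reached 100 UMIs over the classes.

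Cdh2, the cadherin of Sertoli adherens junctions, stood at 64.4 and 61.5 CPM in Sertoli-like cells. Its next class was endothelial-like in control (16.8, from 8 UMIs in 4 cells) and germ-like in Cnot3-cKO (11.8, from 18 UMIs), a fold of 3.82 (1.93 to 8.87) and 5.22 (3.29 to 8.83). Nectin2, an immunoglobulin-type protein of adherens junctions, stood at 149 and 140.0 in Sertoli-like cells and at 137 (106 to 174) and 132 (101 to 170) in endothelial-like cells. The Nectin2 fold between these classes was 1.09 (0.854 to 1.42) and 1.06 (0.820 to 1.39), so neither library separated them. Myoid-like cells held 43.2 and 36.7, stroma-like cells 34.3 and 29.0 and germ-like cells 6.91 and 8.51. Nectin2 was therefore lowest in germ-like cells, the reverse of Cldn3 and Cdh1.

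Gja1, the gap junction protein connexin 43, stood at 310.0 CPM (303 to 318) in control and 443 (435 to 452) in Cnot3-cKO Sertoli-like cells. Endothelial-like cells held 118 and 61.8, which put Sertoli-like cells 2.63-fold (2.02 to 3.49) and 7.18-fold (4.96 to 10.8) higher. The other 3 of the 5 classes were at 6.82 or below apart from Cnot3-cKO germ-like cells, at 29.5 from 45 UMIs.

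Levels in the small endothelial-like class came with RNA of other cells. The 10 Sertoli markers summed to 2006 CPM in the 33 control endothelial-like cells and to 364 in the 37 Cnot3-cKO cells, against 11637 and 11738 in Sertoli-like cells, and the stroma markers to 71.6 and 938. In barcodes of at most 100 UMIs, which hold free RNA, Cldn11 stood at 42.3 and 62.6 CPM, F11r at 73.1 and 103, and Gja1 at 73.4 and 166. When free RNA was subtracted in proportion to those markers, F11r and Nectin2 were highest in endothelial-like cells in control, 1.98-fold and 1.82-fold above Sertoli-like cells, and Sertoli-like cells stayed highest in Cnot3-cKO. For endothelial-like cells this set the free share at 65.1% of UMIs in control and 7.11% in Cnot3-cKO. Levels were taken over the UMIs left, so the control endothelial folds rest on a large subtraction. In control the same subtraction changed the fold of Sertoli-like over the next class to 1.57 for Gja1, 1.25 for Ocln and 28.7 for Cldn11, and that of endothelial-like over germ-like cells to 4.66 for Tjp1. Without doublets these control folds were 4.35 for Gja1, 1.78 for Ocln, 14.2 for Cldn11 and 2.07 for Tjp1. Of the 8 Cldn11 UMIs in control endothelial-like cells 7 lay in 3 cells, as did 7 of the 8 Cdh2 UMIs. A single free share per class does not describe such clumping. The part of other cells' RNA in the endothelial levels was not tested further.

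The members were also counted together in each cell. At 7500 UMIs a Sertoli-like cell showed a median of 4 of the 10 members in both libraries, an endothelial-like cell 4, a germ-like or stroma-like cell 1 and a myoid-like cell 0. At least 5 members were seen in 33.3% and 34.6% of Sertoli-like cells, in 24.2% and 18.9% of endothelial-like cells and in no stroma-like cell.

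The comparison of genotypes asks whether loss of Cnot3 in germ cells went with a different junction transcript level in the cells around them. In Sertoli-like cells 7 members had at least 100 UMIs over both libraries, and 0 of 7 differed by more than 1.5-fold, against 1.79% of all 11068 genes with that many UMIs. The median log2 ratio of Cnot3-cKO to control over the 7 was 0.03. Gja1 was the farthest from 0, at 0.52 (0.47 to 0.56) on the log2 scale. A thinned Sertoli-like cell held a median of 2 Gja1 UMIs in control (quartiles 1 and 3) and 3 in Cnot3-cKO (quartiles 2 and 5), and 4 or more in 21.5% and 41.3% of cells. Tjp1 followed at 0.28 (0.17 to 0.38) and F11r at 0.11 (0.05 to 0.17). The strand proteins lay nearer 0, with Ocln at 0.03 (-0.08 to 0.14) and Cldn11 at -0.05 (-0.11 to 0.02), as did the adherens proteins Cdh2 at -0.07 (-0.17 to 0.04) and Nectin2 at -0.09 (-0.16 to -0.02). Free Gja1 RNA also differed, since the level in barcodes of at most 100 UMIs was 73.4 in control and 166 in Cnot3-cKO. Over the 9 alternatives that recomputed it, subtraction of free RNA included, the Gja1 log2 ratio in Sertoli-like cells was between 0.48 and 0.54.

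**Figure D2:**
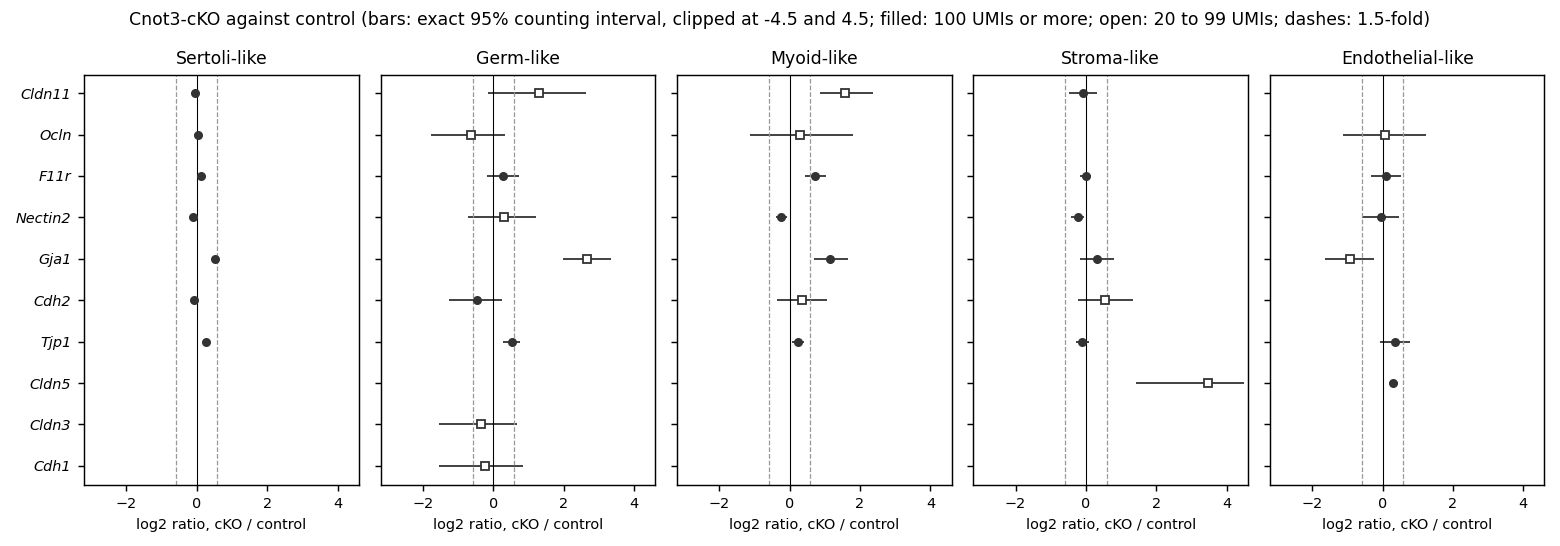
Log2 ratio of Cnot3-cKO to control for each member, in a panel per cell class, with exact 95% counting intervals; the dashed lines mark 1.5-fold and open squares have 20 to 99 UMIs. In Sertoli-like cells Gja1 lay at 0.52 and the other 6 members with at least 100 UMIs between -0.09 and 0.28.

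In the myoid-like cells, which wrap the tubule from outside, 2 of 4 members lay past 1.5-fold, against 2.88% of 10954 genes. Gja1 gave 3.05 CPM (51 UMIs) in control and 6.82 (139 UMIs) in Cnot3-cKO, or 1.16 (0.69 to 1.65) as a log2 ratio. F11r gave 8.49 and 14.1, or 0.73 (0.44 to 1.03). A cluster led by Ramp1 and Adam33 moved with both: it held 16 control and 101 Cnot3-cKO cells, its Sertoli markers summed to 87.3 and 682 CPM, and its Cnot3-cKO cells held F11r at 93.9 and Gja1 at 41.3. Without that cluster, a choice made after seeing the data, F11r stood at 0.17 (-0.16 to 0.51) and Gja1 at 0.79 (0.26 to 1.34), so that 1 of 4 members remained past 1.5-fold. Per 1000 Sertoli-marker UMIs, Gja1 gave 27.9 (20.7 to 36.9) and 39.0 (32.7 to 46.2) in myoid-like cells, beside 26.6 and 37.8 in Sertoli-like cells. F11r gave 77.8 (65.1 to 92.3) and 80.8 (71.4 to 91.1) in myoid-like cells, beside 17.7 and 18.9 in Sertoli-like cells. The part of Sertoli RNA in the myoid values was not tested. Tjp1 had a log2 ratio of 0.23 (0.05 to 0.41), and of 0.08 (-0.10 to 0.27) without the Ramp1 cluster. Nectin2 had a ratio of -0.24 (-0.39 to -0.09).

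In stroma-like cells 0 of 5 members lay past 1.5-fold (1.41% of 10972 genes). Nectin2 was at -0.24 (-0.42 to -0.07), the same side of 0 as in Sertoli-like and myoid-like cells, and Gja1, Tjp1, Cldn11 and F11r had intervals that included 0. Gja1 depended on the processing, at 0.31 in these cells, 0.66 (0.45 to 0.87) in a wider set with looser bounds on UMIs and mitochondrial share, 0.59 without doublets and -2.14 with free RNA subtracted. In endothelial-like cells 0 of 4 lay past it (8.27% of 1560 genes), with Cldn5 at 0.30 (0.18 to 0.43). Cldn5 stood at 0.65 (0.53 to 0.77) in the wider set, and with free RNA subtracted all 4 lay past 1.5-fold on the lower side, Cldn5 at -1.11, Nectin2 at -1.01, F11r at -0.95 and Tjp1 at -0.83. The free share was set at 65.1% of UMIs in control and 7.11% in Cnot3-cKO, and levels were taken over the UMIs left. The unequal totals shift all genes of the class, and no share of all genes was taken at that setting. These 4 values therefore cannot be read as particular to the members. Without subtraction, Gja1 was at -0.93 (-1.64 to -0.25) in endothelial-like cells, from 56 and 28 UMIs in classes with the unequal Sertoli RNA given above. Of these, 24 control and 7 Cnot3-cKO UMIs lay in 3 cells of each library, which the interval leaves out. In the wider set the Gja1 ratio was -0.28 (-0.85 to 0.28), from 64 and 48 UMIs.

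Germ-like cells are the class in which Cnot3 was deleted, and 0 of 3 members lay past 1.5-fold there, against 10.4% of 8047 genes. Tjp1 was at 0.53 (0.29 to 0.76), F11r at 0.29 (-0.17 to 0.73) and Cdh2 at -0.46 (-1.27 to 0.26). F11r lay on the other side of 0, at -0.26 (-0.40 to -0.13) from 1633 and 640 UMIs, in the wider set, and Cdh2 was at -0.62 without doublets. Gja1 rested on 33 and 45 UMIs, below the 100 needed, with a log2 ratio of 2.66 (1.98 to 3.36). The 33 control UMIs lay in 15 of 241 cells. The 45 Cnot3-cKO UMIs lay in 9 of 73 cells, with 23 of them in 3 cells. Intervals for Gja1 here take its UMIs as independent and leave out this clumping. The Sertoli markers in germ-like cells summed to 154 and 442 CPM. Per 1000 marker UMIs Gja1 gave 30.1 (20.6 to 42.6) in control, near the Sertoli proportion, and 66.6 (48.1 to 90.1) in Cnot3-cKO, above it. The part of Sertoli RNA in the Gja1 values was not tested.

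Variation inside the Sertoli class was larger for some members than the difference between genotypes. The 4 Sertoli clusters were led by Hsd17b1 and Serpina5 (693 control and 942 Cnot3-cKO cells), by Cidea and Hrk (351 and 386), by Hist1h2bc and Spp1 (146 and 178) and by cell cycle genes (210 and 217). Between the Cidea and the Hsd17b1 clusters 3 members differed by more than 1.5-fold in both libraries. Gja1 was lower in the Cidea cluster, at 227 against 358 CPM in control and 286 against 533 in Cnot3-cKO (log2 ratios of -0.66 and -0.90; 2.62% of 10552 genes were lower by that much). Cdh2 was higher in the Cidea cluster, at 94.8 against 54.2 in control and 96.6 against 50.3 in Cnot3-cKO. Nectin2 was also higher there, at 193 against 122 in control and 201 against 113 in Cnot3-cKO (3.17% of genes were higher by that much). The gap junction gene and the adherens genes thus differed in opposite directions between these clusters. Higher levels in the Cidea cluster were not limited to adherens genes. Cldn11 was at 0.48 and 0.48 and Tjp1 at 0.53 and 0.53 in control and Cnot3-cKO, below 1.5-fold but with intervals above 0. Ocln was at 0.05 and 0.27 and F11r at -0.09 and 0.04. No member passed 1.5-fold in both libraries between the Hist1h2bc and the Hsd17b1 clusters (2.88% of 10295 genes were higher and 4.92% lower by that much). None did between cycling and other Sertoli-like cells either (7.83% of 11068 genes higher and 4.7% lower), where Cldn11 stood at 182 against 142 in control and at 162 against 142 in Cnot3-cKO.

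**Figure D3:**
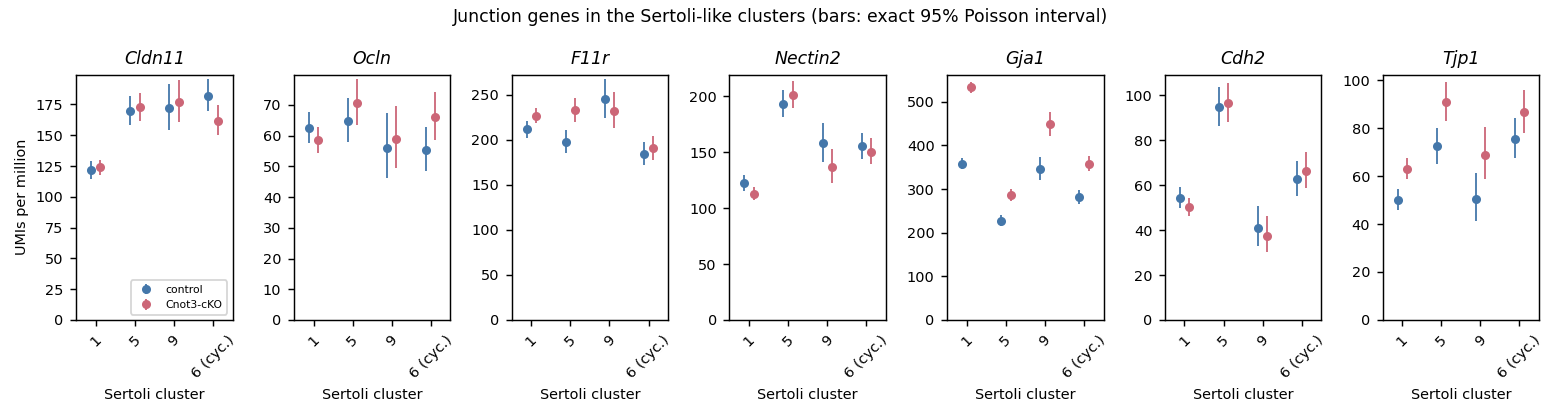
CPM of the 7 members detected in Sertoli-like cells, in each of the 4 Sertoli clusters, with exact 95% intervals; blue is control, red Cnot3-cKO, and clusters 1, 5, 9 and 6 are the Hsd17b1, Cidea, Hist1h2bc and cycling clusters. Gja1 was lowest in the Cidea cluster, where Cdh2 and Nectin2 were highest, and Gja1 in Cnot3-cKO exceeded control in 4 of 4 clusters.

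Gja1 was higher in Cnot3-cKO within each Sertoli cluster, by 0.57 on the log2 scale in the Hsd17b1 cluster, 0.33 in the Cidea cluster, 0.37 in the Hist1h2bc cluster and 0.35 in the cycling cluster, and all 4 intervals lay above 0. Tjp1 was higher in 4 of 4 clusters as well, by 0.20 to 0.45, with 3 intervals above 0. F11r was higher in 3 of 4 and Nectin2 lower in 3 of 4, with 2 and 1 intervals that left out 0. Cdh2 was higher in 2 and lower in 2. Clusters of 1 library are not replicates, and these counts describe evenness within the pair of libraries.

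The study's bounds on UMIs and mitochondrial share left few germ cells, so germ subsets were described in a wider set of 1125 control and 479 Cnot3-cKO germ-like cells. Clusters are ordered from cells led by Lhx1, which had the highest sum of the spermatogonial stem cell markers (504 CPM), to cells that express genes of differentiation, and each is called by 1 gene among its 8 leading genes: Lhx1, Twist1, Ret, Neurog3, Stra8, Kit and Meioc, in that order. Tjp1 in control was 159, 113, 117, 92.1, 78.9, 43.1 and 32.7 CPM over these clusters. In Cnot3-cKO it was 160.2, 107, 129, 74.6, 100.4, 42.7 and 29.2, so that the Stra8 cluster lay above the Neurog3 cluster. F11r in control went from 54.3 to 5.13 and Ocln from 29.7 to 0.24 between the Lhx1 and Meioc clusters. Cdh2 ran the other way, from 5.51 to 28.1 in control and from 2.41 to 22.9 in Cnot3-cKO. Cldn3 in control was highest in the clusters between them, at 22.6 in the Neurog3, 21.9 in the Ret and 17.6 in the Twist1 cluster, against 3.91 to 7.21 in the Lhx1, Stra8, Kit and Meioc clusters. Cdh1, used as a surface label of undifferentiated spermatogonia, was 11.5 in the Twist1 and 0.73 in the Meioc cluster.

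**Figure D4:**
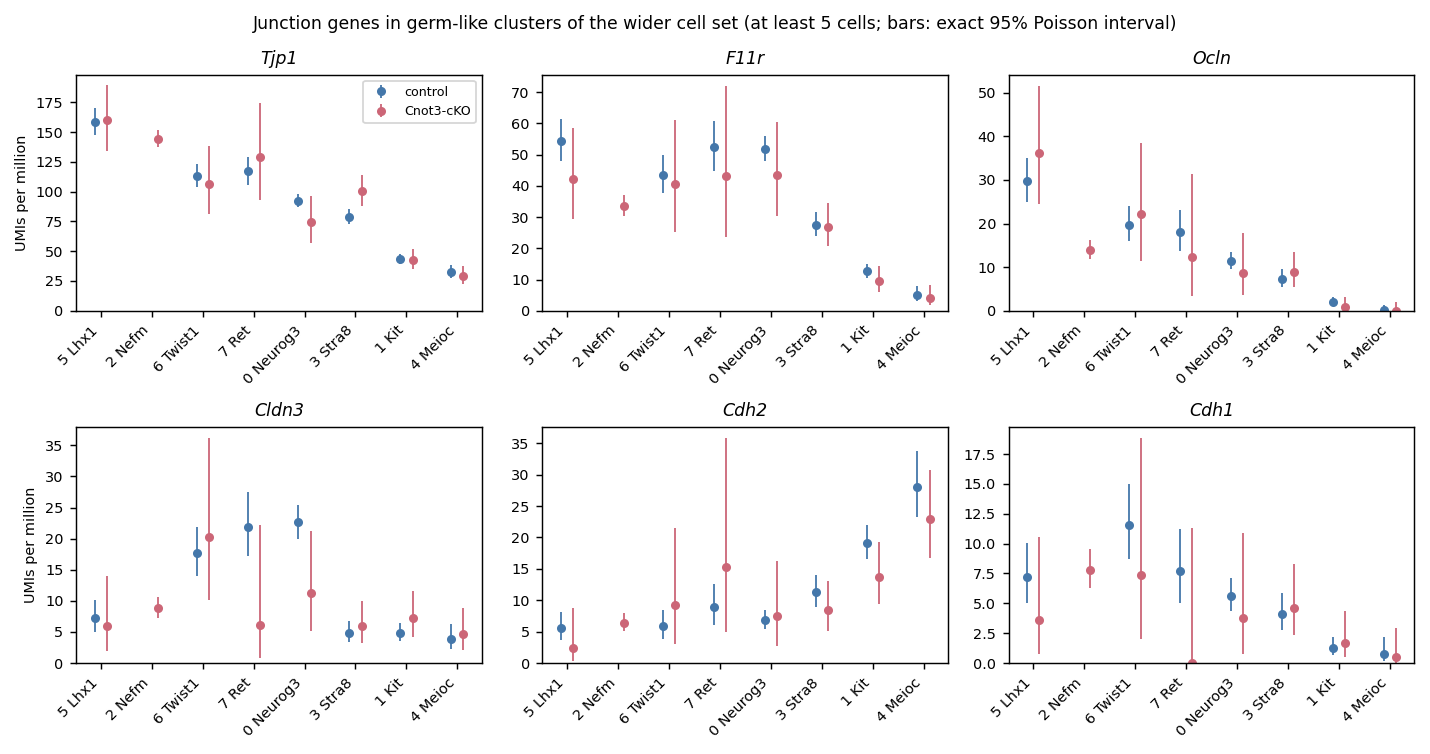
CPM of members in the germ clusters of the wider set, ordered from the Lhx1 cluster to the Meioc cluster, with exact 95% intervals; blue is control and red Cnot3-cKO. Between these ends Tjp1 in control went from 159 to 32.7 CPM and Cdh2 from 5.51 to 28.1.

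Over all germ-like cells of the wider set, 1 of 8 members, Gja1, lay past 1.5-fold between genotypes, against 12% of 12586 genes. Gja1 was 1.20 and 5.36 CPM, a log2 ratio of 2.16 (1.69 to 2.65). A cluster of 7 control and 17 Cnot3-cKO cells that also held Sertoli and stroma markers, summing to 1087 CPM for the Sertoli and 937 for the stroma list, carried Gja1 at 13.2 and 46.8, and without it the ratio was 1.59 (1.06 to 2.13). Tjp1 was 85.1 and 117, a ratio of 0.46 (0.39 to 0.54). A cluster led by Nefm, with 419 CPM of the stem cell markers, held 1 control and 251 Cnot3-cKO cells, with Tjp1 at 145 in Cnot3-cKO, and without it the Tjp1 ratio was 0.01 (-0.10 to 0.11). Within the 8 clusters with at least 5 cells in each library, Tjp1 was higher in Cnot3-cKO in 4, and the interval left out 0 in 1, the Stra8 cluster, at 0.35 (0.12 to 0.57). Without the Nefm cluster 3 members lay past 1.5-fold, Gja1 at 2.57 (2.05 to 3.10), Cldn3 at -0.70 (-1.06 to -0.35) and Nectin2 at 0.68 (0.27 to 1.07), of which Nectin2 had 208 control and 72 Cnot3-cKO UMIs. F11r was then at -0.56 (-0.76 to -0.36) and Ocln at -0.39 (-0.73 to -0.05). With both the Nefm cluster and the cluster of Sertoli and stroma markers left out, Nectin2 stood at 0.03 (-0.49 to 0.52). Of its 72 Cnot3-cKO UMIs above, 31 lay in the latter cluster. Past 1.5-fold were then Cldn3 at -0.74 (-1.12 to -0.37), F11r at -0.67 (-0.89 to -0.46) and Cdh1 at -0.79 (-1.44 to -0.20). Tjp1 was at -0.17 (-0.29 to -0.06). Gja1, at 1.32 (0.58 to 2.02), rested on 53 and 26 UMIs, below the minimum. No share of all genes was taken without these clusters. Both choices of cluster were made after seeing the data.

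The 73 other genes of tight, adherens and gap junctions were examined beside the members. In Sertoli-like cells, of 38 with at least 100 UMIs, 0 lay past 1.5-fold (1.79% of all genes), with a median log2 ratio of 0.07 and a range of -0.39 to 0.41. The 6 with the highest mean level over the 2 libraries were Ctnnb1 (beta-catenin, which binds cadherins) at 285 and 322 CPM, Jam2 at 149 and 180.0, Cgn (cingulin, a tight junction plaque protein) at 130.5 and 151, Vcl (vinculin) at 122 and 129, Espn (espin, an actin bundler of Sertoli junctions) at 125 and 123, and Ctnna1 at 92.0 and 96.0. In germ-like cells 3 of 23 lay past it, near the 10.4% of all genes: Cgn at 16.9 and 26.8 (log2 ratio 0.66), Pkp2, a desmosome plaque protein, at 15.2 and 26.2 (0.78), and Jam3 at 45.6 and 30.1 (-0.60). In endothelial-like cells 1 of 8 did, beside 8.27% of all genes, the endothelial connexin Gja4, at 309 and 477 (0.62), and in myoid-like and stroma-like cells 0 of 32 and 0 of 31 (2.88% and 1.41% of all genes).

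Likeness between genes was described by Pearson's r of log2(CPM + 1) over 34 profiles, each a cluster in a library, which share libraries and depth. The genes most like each member were Fndc5 for Cldn11 (r = 0.96), Lsr, a tricellular junction protein, for Ocln (0.98), Gm45889 for Gja1 (0.95), Wt1, a Sertoli transcription factor, for F11r (0.94), Gm53 for Nectin2 (0.96), Afdn (afadin, the nectin-binding protein) for Tjp1 (0.94), Trank1 for Cdh2 (0.95), Ctla2a for Cldn5 (0.93), Cyct, a germ cell cytochrome c, for Cldn3 (0.92) and Hscb for Cdh1 (0.89). Cgnl1 and Jam2, both junction genes, came next for Nectin2 (0.94 each), and Dhh, a signal secreted by Sertoli cells, was also among the 3 most like Gja1 (0.94). Among members, Ocln was most like F11r (0.91) and Gja1 (0.89), Cldn3 was most like Cdh1 (0.69), and Nectin2 and Cdh1 had the lowest r (-0.55). Cdh1 gave 76 control and 35 Cnot3-cKO UMIs in all kept cells, and Cldn3 76 and 27, so their r values rest on few UMIs. A profile needed at least 30 cells, which left out the small Rmst cluster described below, where both genes were high.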

How the data were processed

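The authors aligned 10x Chromium 3′ reads to mm10 with Cell Ranger 3.0.1 (Ensembl build 93) and deposited 1 merged matrix of UMI counts per genotype, not normalized. Members and gene lists were chosen with earlier results of these data known. Cells were barcodes above the 99th percentile of the top 3000 divided by 10; per the study's bounds, cells within 2 SD in UMIs and genes and under 10% mitochondrial UMIs were kept, and a wider set allowed 20% and no upper bound. Scrublet marked 282 of the kept control and 299 of the kept Cnot3-cKO cells as doublets, which stayed in. Leiden clusters (scanpy 1.11.5, resolution 0.5, 2500 variable genes without junction genes) were named from marker lists. Counts were summed per class and library. Intervals were exact Poisson or conditional binomial, on counting error only (numpy 2.4.6, scipy 1.17.1), and the ratio code was tested on simulated data. With 1 library a genotype no test was run: a fold above 1.5 with at least 100 UMIs was called. All members were named, with other junction genes by level or fold and the nearest 3 genes by profile. Alternatives were another filter, scaling, clustering, doublet removal, free RNA subtraction and other thresholds.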

Additional observations from a re-analysis of the deposited data

Results flagged for a closer look

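An unnamed cluster of 10 control and 11 Cnot3-cKO cells, outside the 5 classes compared, held the members that were near 0 in Sertoli-like cells. Cdh1 stood there at 96.2 CPM in control (16 UMIs, in 8 of 10 cells) and 134 in Cnot3-cKO (23 UMIs, in 9 of 11 cells), and Cldn3 at 42.1 (7 UMIs) and 70.1 (12 UMIs). These values lie above what a count of 0 allows. The cluster was 0.178% and 0.182% of the cells but held 21.1% and 65.7% of their Cdh1 UMIs and 9.21% and 44.4% of their Cldn3 UMIs. It was led by Rmst and carried Pax8 at 427 and 485 CPM. Of the Sertoli markers it had Sox9 at 247 and 263 and Wt1 at 367 and 228, while Amh gave 0 and 2 UMIs. Kdr, an endothelial marker, stood at 391 and 526 there, in 9 of 10 and 11 of 11 cells. The germ marker Ddx4 gave 1 and 0 UMIs. Other markers of these lists are not given here, and the cluster was assigned to no class.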

How the results depend on the processing

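No paired analysis was possible because the 2 samples of each genotype were merged with no map from barcode to sample and no result comes from a test; for the same reason no sample could be left out. Each genotype being 1 library, biological spread is unknown, and the small germ-like and endothelial-like classes limit precision. The count of members past 1.5-fold in Sertoli-like cells was 0 under every alternative run. The count highest in Sertoli-like cells in both libraries, for which no share of all genes was taken, was 6 except with free RNA subtracted. F11r and Nectin2 then left it, being highest in endothelial-like cells in control. In germ-like cells (0 of 3) the count was 1 of 8 in the wider set, 1 without doublets, 1 by the mean of per-cell levels, 1 with free RNA subtracted and 3 of 9 at a minimum of 20 UMIs. In myoid-like cells (2 of 4) it was 1 without the Ramp1 cluster and 1 at 2-fold. In stroma-like cells (0 of 5) it was 1 of 6 in the wider set, 1 of 6 without doublets, 1 with free RNA subtracted and 1 of 7 at 20 UMIs. In endothelial-like cells (0 of 4) it was 1 of 5 in the wider set, 4 with free RNA subtracted and 1 of 6 at 20 UMIs. For the other junction genes the wider set gave 7 of 43 in germ-like (main 3 of 23), 1 of 32 in myoid-like (main 0) and 2 of 10 in endothelial-like cells (main 1 of 8). Among the alternatives, the share of all genes past 1.5-fold was taken only for germ-like cells of the wider set, at 12% of 12586 genes. The other alternative counts cannot be read against all genes. The median detection share of 7 members in Sertoli-like cells was 61.9% and 61.8% at equal depth and 81.1% and 79.3% without thinning. Of 200 recomputed log2 ratios with at least 100 UMIs, 189 stayed within the counting interval and 18 changed sign. No ratio past 1.5-fold in the main values changed sign, but 4 that were not lay past it on the other side with free RNA subtracted: Gja1 in stroma-like cells (-2.14) and Cldn5 (-1.11), F11r (-0.95) and Tjp1 (-0.83) in endothelial-like cells. The causes were not tested.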

Other observations

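Members were also present in an unnamed cluster of 186 control and 209 Cnot3-cKO cells that carried Sertoli together with stroma and myoid markers, at levels between those classes. Cldn11 stood there at 72.2 and 81.9 CPM, Gja1 at 160 and 231, F11r at 121 and 128 and Nectin2 at 101 and 94.6. In an unnamed stromal cluster led by Foxl2 and Oxtr, with 673 and 711 cells, Gja1 stood at 18.1 and 26.9 while Cldn11 was at 1.52 and 1.97.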
